A study of Mus musculus with 6 samples.

Results

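These are 264 genes whose transcripts were far less abundant in mouse peritoneal macrophage cultures after endotoxin than in vehicle cultures. Peritoneal macrophages are the phagocytes of the abdominal cavity. Reads were summed per gene symbol and scaled to CPM, a gene's counts divided by the total of its library and brought to a common depth. A gene was taken if it reached 10 CPM in both vehicle libraries and if its mean with endotoxin was at most 0.4 times its vehicle mean. Of 24454 symbols, 6561 met the first condition and 285 met both. Of those, 21 were set aside by symbol, as solute carriers, RGS proteins, Fc gamma receptors or one of a short list of single genes. The fall with endotoxin is therefore how the 264 genes were found. It is given as a description with no test.

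All 6 libraries were made from polyA-enriched RNA of cultured primary macrophages of wild-type male C57BL6/J mice aged 6 to 8 weeks. There were 2 libraries of each group: vehicle for 5 h, the bacterial endotoxin lipopolysaccharide (LPS) at 10 ng/ml for 4 h, and 10 µM SGA360 during 1 h before the same LPS treatment (SGA360+LPS). SGA360 binds the aryl hydrocarbon receptor, a transcription factor that responds to small molecules. The labels do not say which animals or dishes lie behind each library. The spread between them, on which every p-value rests, may therefore be technical. Total counts ran from 7726973 to 9529817 per library. Vehicle replicate 1 stood apart, with 10001 symbols detected against 12282 to 12643 in the other libraries and 4.92% of its counts on the ribosomal RNA gene Rn45s, against 0.22% to 0.684%.

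LPS is sensed by the receptor TLR4, which drives new transcription through NF-kB, AP-1 and interferon regulatory factors. The same stimulus also lowers many transcripts of the resting macrophage, by less transcription, faster decay of mRNA, or both. The resting program includes differentiation factors, receptors for lipid mediators and complement fragments, and the enzymes with which a scavenging cell stores, hydrolyses and oxidises lipid. Steady-state read counts do not separate synthesis from decay. In cultures that hold more than one cell type, fewer cells of a type and less RNA per cell also cannot be told apart.

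The culture was checked against cell type markers. Lyz2, Csf1r and Cd68 of the macrophage list were high in every library, while Itgam was listed at 0 counts. The macrophage markers were not steady across treatments. Csf1r went from 729 and 884 CPM in vehicle to 577 and 588 CPM after LPS. Adgre1 rose from 501 and 588 CPM in vehicle to 1186 and 1263 CPM after LPS. Cd14 rose from 165 and 191 CPM to 1244 and 1312 CPM. The mesothelial and fibroblast lists were also present. The 9 mesothelial markers in the table summed to 556 and 553 CPM in vehicle, 358 and 355 CPM after LPS, and 352 and 370 CPM with SGA360+LPS. The 8 fibroblast markers summed to 4850.1 and 5846 CPM in vehicle and 4256 to 5117 CPM in the LPS-treated libraries, mostly from collagen genes. Of the 9 mesothelial and 6 fibroblast markers tested, 0 were among the 264 genes. The lists are too short for this to show from which cells the 264 genes came. The part of mesothelial cells and fibroblasts in the falls was not tested. Markers of B cells, T and NK cells, neutrophils, eosinophils and dendritic cells summed to at most 40.5 CPM per list and library, and those of mast cells to 81.7 to 97.3 CPM. The 5 endothelial markers summed to 68.0 and 89.5 CPM in vehicle, 45.4 and 55.3 CPM after LPS, and 59.0 and 62.1 CPM after SGA360+LPS, nearly all from Vwf, while Pecam1 and Tek were at 0. Their part in the falls was not tested. Each list of immune cells other than macrophages, and the endothelial list, had 2 or 3 markers at 0 in all libraries. Because Itgam was also at 0 in these macrophage cultures, a 0 need not mean absence. The low sums may therefore understate these cells.

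Together the 264 genes took 2.88% and 3.05% of the counts in the vehicle libraries. With LPS the share was 0.886% and 0.909%, and with SGA360+LPS 0.97% and 1.01%. The median gene stood at 50.2 CPM in vehicle, 13.3 CPM after LPS, and 14.8 CPM with SGA360+LPS. Relative to its vehicle mean, the median gene was at 29.9% with LPS (quartiles 23.8% and 36.1%) and at 33.4% with SGA360+LPS (quartiles 25.8% and 39.5%). For all 264 genes both LPS libraries lay below both vehicle libraries, which was so for 42.5% of the 9389 genes tested. The vehicle and LPS libraries chose the genes, so this separation describes the choice. The same held for SGA360+LPS against vehicle (264 genes, against 41.3%), where the vehicle libraries had been chosen for high values. The LPS mean was under 0.2 of the vehicle mean in 45 genes and under 0.1 in 8.

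**Figure D1:**
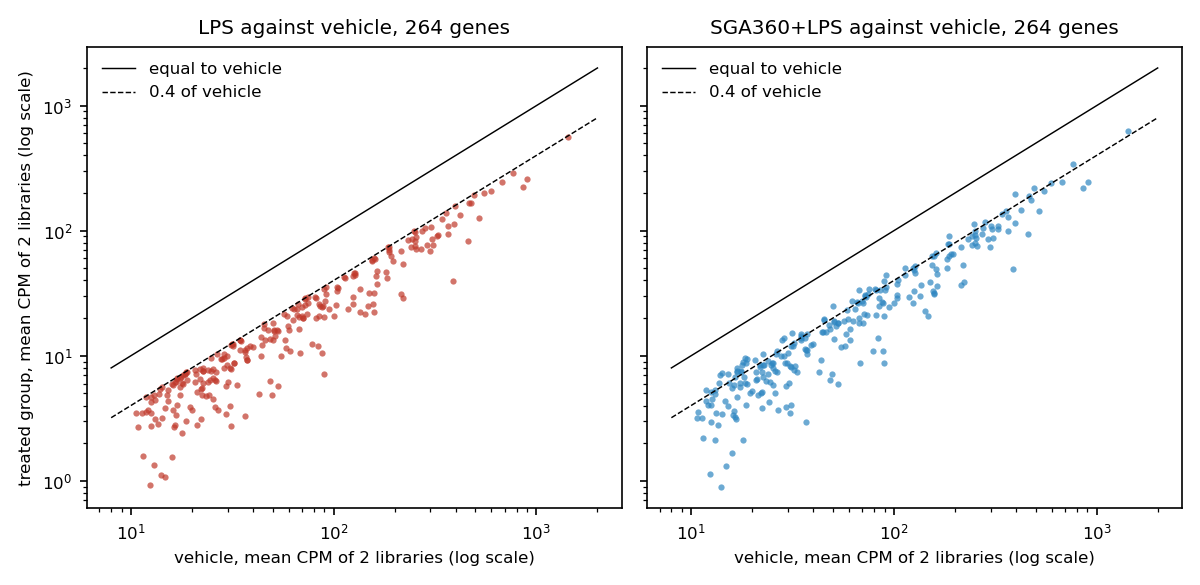
Mean CPM of each of the 264 genes in vehicle (horizontal, log scale) against its mean CPM with LPS (left) or SGA360+LPS (right, log scale), each a mean of 2 libraries. The dashed line marks 0.4 of vehicle, below which every point of the left panel lies by choice, while 202 of the 264 points lie on or below it in the right panel.

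Next to the threshold, membership was a matter of small differences. The last genes inside were Plekhm1, Cpt1a and Abhd14b, at 39.8%, 39.9% and 39.97% of vehicle with LPS. The first outside were Wdr7, Naprt and Acaa2, at 40.03%, 40.08% and 40.2%. In the 4 pairings of 1 LPS with 1 vehicle library, 231 to 240 of the 264 genes were at or below 0.4; these are the libraries that chose the genes, so the counts describe the choice. Vehicle replicate 1 differed from replicate 2 in depth of detection. The median gene of the group was 1.043 times higher in replicate 2 (range 0.566 to 2.04). The rule asked for 10 CPM in both vehicle libraries, so genes poorly detected in replicate 1 could not enter this range. Over 9012 genes, the counts of the 2 vehicle libraries differed by a mean chi-square of 45.2. The mean was 6.35 for the LPS pair and 4.23 for the SGA360+LPS pair. When genes were chosen on the replicate 1 libraries alone (345 genes tested), 341 were lower with LPS in the replicate 2 libraries and 223 were again at or below 0.4. The reverse choice gave 310 genes, of which 303 were lower and 215 at or below 0.4. This check was added after the data were seen, and it gives no such counts over all genes tested. Over those genes, the LPS mean was at a median of 90.9% of vehicle, with a lower quartile of 70.3%. If the libraries of a group are technical copies, the check describes repeat measurement only.

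**Figure D2:**
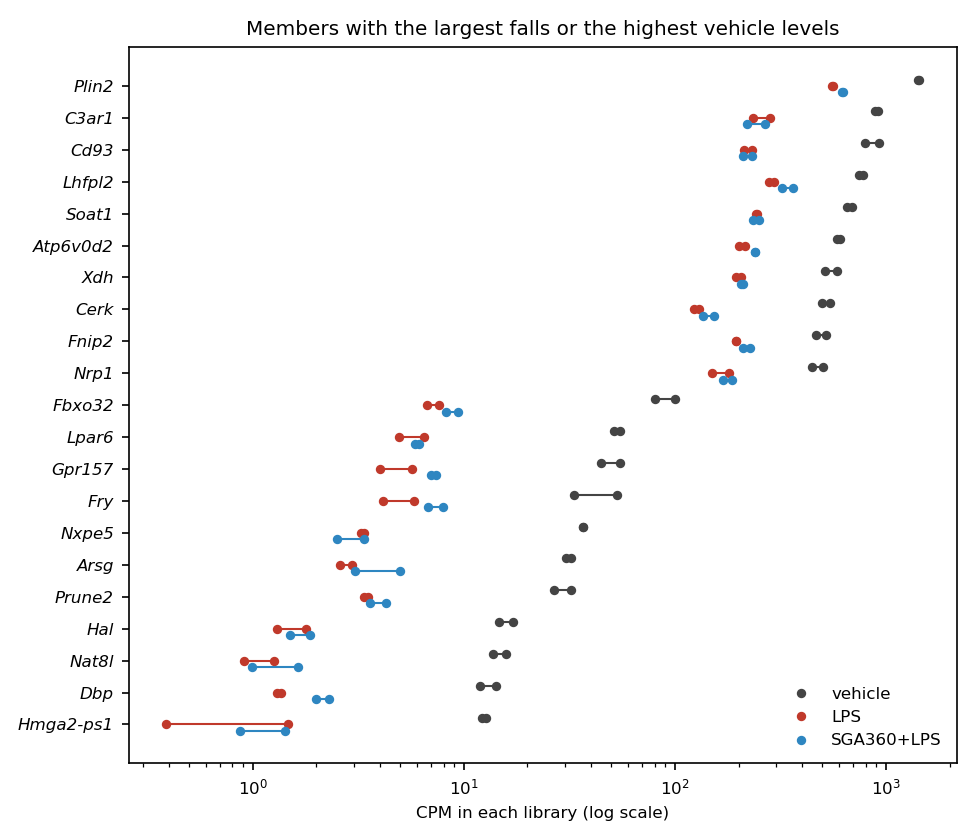
CPM (log scale) of single libraries for 21 genes, 11 of the 12 with the lowest ratio of LPS to vehicle and the 10 with the highest vehicle CPM; a line joins the 2 libraries of a group. The vehicle points lie to the right of all LPS and SGA360+LPS points in every row, and the LPS and SGA360+LPS points overlap or lie close together.

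By textbook function, 200 of the 264 genes were placed in 11 roles and 64 were left without one. The roles were assigned after the list was known, so they only order the description. The lowest median was that of 9 G protein-coupled receptors, at 20.1% of vehicle with LPS (range 9.72% to 28.6%). The other roles had medians from 27.1% to 33.8%.

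Transcription factors of blood and macrophage development were among the 264 genes. Maf, a bZIP factor that acts in macrophage differentiation and in interleukin 10 expression, was at 322 and 281 CPM in vehicle, 111 and 105 CPM after LPS, and 112 and 108 CPM after SGA360+LPS. Its LPS and SGA360+LPS ranges overlapped, and its LPS mean was 35.8% of vehicle. Lyl1, a basic helix-loop-helix factor of blood stem and progenitor cells, was at 116 and 91.1 CPM in vehicle and 27.3 and 23.9 CPM with LPS. Fli1, an ETS factor, was at 71.1 and 70.2 CPM in vehicle and 21.0 and 18.8 CPM with LPS. Lyl1 and Fli1 were lower relative to vehicle than Maf, at 24.8% and 28.1%.

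Dbp, a clock-controlled bZIP factor, was at 11.97 and 14.2 CPM in vehicle, 1.29 and 1.36 CPM after LPS, and 1.99 and 2.29 CPM after SGA360+LPS. Its LPS counts were only 10 and 13, so its ratio of 10.2% is imprecise. Epas1, which encodes the hypoxia-inducible factor HIF-2 alpha, was at 323 and 391 CPM in vehicle and 139.9 and 135 CPM with LPS. Ski, a co-repressor that binds SMAD proteins, was near the threshold at 236 and 263 CPM in vehicle and 99.8 and 98.5 CPM with LPS. Genes of the group with zinc finger symbols (Zfp and Zkscan) were Zfp395 (79.2 and 84.0 CPM in vehicle and 22.0 and 18.3 CPM with LPS), Zfp704 (68.7 and 75.6 CPM in vehicle and 27.7 and 23.5 CPM with LPS) and Zkscan14 (17.7 and 10.0 CPM in vehicle and 5.95 and 4.93 CPM with LPS). The 3 were at 24.7%, 35.5% and 39.2% of vehicle. In all, the 23 transcription and chromatin regulators had a median of 31.1% with LPS and 31.7% with SGA360+LPS.

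Receptors for attractants, lipid mediators and nucleotides were among the G protein-coupled receptors. C3ar1, the receptor of the complement fragment C3a, was at 886 and 919 CPM in vehicle, 235 and 281 CPM after LPS, and 219.5 and 268 CPM after SGA360+LPS. The LPS and SGA360+LPS ranges overlapped and both were far from vehicle. Gpr157, an orphan receptor, had the lowest ratio of the role, at 44.8 and 54.8 CPM in vehicle, 4.01 and 5.67 CPM after LPS, and 7.33 and 6.99 CPM after SGA360+LPS. Both SGA360+LPS libraries of Gpr157 were above both LPS libraries, yet at 14.4% of vehicle. Lpar6, a lysophosphatidic acid receptor, was at 54.8 and 51.4 CPM in vehicle, 6.47 and 4.93 CPM after LPS, and 5.84 and 6.11 CPM after SGA360+LPS. S1pr1, the sphingosine 1-phosphate receptor that guides cell egress, was at 117 and 131 CPM in vehicle, 25.2 and 27.1 CPM after LPS, and 22.9 and 29.8 CPM after SGA360+LPS. Lpar6 and S1pr1 showed overlapping LPS and SGA360+LPS ranges.

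P2ry6, which senses extracellular UDP, was at 162 and 152 CPM in vehicle, 33.0 and 30.3 CPM after LPS, and 26.5 and 35.6 CPM after SGA360+LPS. Gpr65, a proton-sensing receptor, was at 44.1 and 43.6 CPM in vehicle, 9.58 and 10.5 CPM after LPS, and 7.58 and 11.0 CPM after SGA360+LPS. Ccr1, a receptor of inflammatory CC chemokines, was at 165 and 161 CPM in vehicle and 36.0 and 39.5 CPM with LPS, or 23.1%. Across the 9 receptors the SGA360+LPS mean was above the LPS mean in 5, with a median ratio of 1.01.

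Of the 19 other receptors and surface proteins, Cd93, a transmembrane lectin-like protein linked to phagocytosis and adhesion, was at 797 and 922 CPM in vehicle, 213 and 232 CPM after LPS, and 210.4 and 230.5 CPM after SGA360+LPS. Nrp1, a co-receptor for semaphorins and VEGF, was at 445 and 504 CPM in vehicle, 151 and 181 CPM after LPS, and 169 and 185 CPM after SGA360+LPS. In both genes the LPS and SGA360+LPS ranges overlapped. Cytokine receptor chains were represented by Il7r (252 and 235 CPM in vehicle and 81.4 and 89.1 CPM with LPS) and Il21r (50.9 and 58.7 CPM in vehicle and 8.67 and 11.2 CPM with LPS). Tlr13, an endosomal sensor of bacterial ribosomal RNA, was at 405 and 438 CPM in vehicle and 122 and 147 CPM with LPS. That was 32.0% of vehicle. Havcr2, which encodes the checkpoint receptor TIM-3, was at 23.0 and 30.7 CPM in vehicle and 3.75 and 3.57 CPM with LPS and had the lowest ratio of the role, 13.6%. The paired myeloid receptors Cd300a, which inhibits, and Cd300lb, which activates, were at 25.8% and 27.9% of vehicle with LPS. Bambi, a TGF-beta pseudoreceptor, was at 12.9 and 15.6 CPM in vehicle and 3.75 and 2.62 CPM with LPS, and Tnfrsf26 at 18.8 and 16.1 CPM in vehicle and 6.60 and 6.72 CPM with LPS. Selplg, the ligand of P-selectin on leukocytes, was at 178 and 195 CPM in vehicle, 70.8 and 76.2 CPM after LPS, and 92.6 and 89.2 CPM after SGA360+LPS, with both SGA360+LPS libraries above both LPS libraries.

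The 8 secreted factors held Tgfbi, a matrix protein induced by TGF-beta, at 134 and 151 CPM in vehicle and 22.6 and 20.8 CPM with LPS, the lowest of the role at 15.2%. Wnt4, a Wnt ligand, was at 200.2 and 173 CPM in vehicle and 73.9 and 61.4 CPM with LPS. Tgfb3, Kitl, Cxcl14, Il16, Pdgfc and Pappa lay between 29.9% and 39.1% of vehicle. Several of these ligands are also made by stromal cells, and the summed mesothelial markers were at 553 and 556 CPM in vehicle and 355 and 358 CPM with LPS. Their part in these values was not tested.

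Lipid handling was the role with the largest share of counts, 6211 CPM summed over 23 genes in vehicle, 1911 CPM after LPS, and 2107 CPM with SGA360+LPS. Plin2, the coat protein of lipid droplets, was at 1439 and 1416 CPM in vehicle, 555 and 559 CPM after LPS, and 622 and 626 CPM after SGA360+LPS. Per kilobase of exon it had the highest vehicle level of the 264 genes (753 CPM per kilobase), followed by the fatty acid binding protein gene Fabp4 (569). Fabp4 was at 372 and 362 CPM in vehicle, 112 and 108 CPM after LPS, and 131 and 125 CPM after SGA360+LPS. Both genes stood higher in both SGA360+LPS libraries than in both LPS libraries, by a small step next to the distance from vehicle. The same order held in 121 of the 264 genes and 22.5% of all genes tested. Enzymes of both directions of the cholesteryl ester cycle were present. Soat1, which esterifies cholesterol, was at 693 and 656 CPM in vehicle, 243 and 245 CPM after LPS, and 235 and 251.02 CPM after SGA360+LPS. Nceh1, which hydrolyses cholesteryl esters, was at 430.2 and 490.2 CPM in vehicle, 80.0 and 84.9 CPM after LPS, and 93.1 and 96.0 CPM after SGA360+LPS. The hydrolase was at 17.9% and the esterifying enzyme at 36.2% of vehicle with LPS.

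Fatty acid oxidation was represented by 4 genes of a list of 35. Cpt1a, the gate of mitochondrial fatty acid entry, was at 164 and 206 CPM in vehicle and 69.4 and 78.4 CPM with LPS. Acox3, a peroxisomal oxidase of branched acyl chains, was at 154 and 168 CPM in vehicle and 41.2 and 46.3 CPM with LPS. Crot, the peroxisomal carnitine octanoyltransferase, was at 68.4 and 63.0 CPM in vehicle and 22.3 and 24.8 CPM with LPS. These 3 ranged from 27.1% to 39.9% of vehicle. Over the whole list, 28 genes were tested with edgeR's quasi-likelihood test; 16 were lower with LPS and 1 was higher at a Benjamini-Hochberg adjusted p under 0.05. The 4 genes chosen for their fall are among the 16. This list and those below were chosen with earlier results of these data known, so their shares are descriptions only. Among all 9389 genes 17% were called lower and 19.4% higher, 36.4% in either direction. Outside the 264 genes, called genes of the list were compared if they averaged at least 5 CPM over the 3 groups. Of these, the thiolase gene Acaa2 changed most (log2 fold change -1.18, SE 0.14, edgeR adjusted p = 9.21e-05).

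Enzymes of lipid mediators and phospholipids formed another block. Cerk, which phosphorylates ceramide, was at 496 and 546 CPM in vehicle, 123 and 130.4 CPM after LPS, and 136 and 153 CPM after SGA360+LPS. Pla2g15, the lysosomal phospholipase A2, was at 294 and 322 CPM in vehicle, 77.4 and 76.2 CPM after LPS, and 85.9 and 89.5 CPM after SGA360+LPS. Daglb, which makes the endocannabinoid 2-arachidonoylglycerol, was at 204 and 224 CPM in vehicle, 31.3 and 31.6 CPM after LPS, and 33.9 and 39.96 CPM after SGA360+LPS. In all 3 genes both SGA360+LPS libraries were above both LPS libraries, as in 121 of the 264 genes and 22.5% of all genes tested. Abhd12, a lysophosphatidylserine lipase, was at 444 and 484 CPM in vehicle, 168 and 165 CPM after LPS, and 192 and 184 CPM after SGA360+LPS. Hpgds, the prostaglandin D2 synthase of blood cells, was at 157 and 137 CPM in vehicle, 26.3 and 23.6 CPM after LPS, and 18.9 and 22.5 CPM after SGA360+LPS. Its SGA360+LPS libraries were both below its LPS libraries. Alox5, the first enzyme of leukotriene synthesis, was at 27.3 and 17.1 CPM in vehicle and 5.56 and 5.25 CPM with LPS, and Tbxas1, the thromboxane synthase, at 284 and 282 CPM in vehicle and 100.4 and 109.9 CPM with LPS. Of 20 tested genes of the mediator list, 11 were called lower and 2 higher with LPS (17% and 19.4% of all genes), and 6 of the 11 are among the 264 and were chosen for their fall. Napepld, which releases N-acylethanolamines, was at 19.1 and 11.2 CPM in vehicle, 5.69 and 4.09 CPM after LPS, and 7.33 and 7.10 CPM after SGA360+LPS. Tmem86a, which encodes a lysoplasmalogenase, was at 135 and 181 CPM in vehicle, 23.7 and 21.0 CPM after LPS, and 31.1 and 32.2 CPM after SGA360+LPS.

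The 18 lysosomal and glycan genes had a median ratio of SGA360+LPS to LPS of 1.15, beside 1.12 over the 264 genes, and none was called. The mean was higher with SGA360+LPS in all 18, as in 216 of the 264 genes and 54.7% of all genes tested. Atp6v0d2, a subunit of the proton pump, was at 607 and 586 CPM in vehicle, 200.3 and 214 CPM after LPS, and 240.1 and 239 CPM after SGA360+LPS. Sgsh, the sulfamidase that breaks down heparan sulfate, was at 74.7 and 92.1 CPM in vehicle, 12.9 and 10.9 CPM after LPS, and 13.7 and 13.98 CPM after SGA360+LPS. Hpse, the endoglycosidase heparanase that acts on the same polymer, was at 250.88 and 329 CPM in vehicle, 76.0 and 76.8 CPM after LPS, and 86.3 and 86.3 CPM after SGA360+LPS. In these 3 genes both SGA360+LPS libraries lay above both LPS libraries, as in 121 of the 264 genes and 22.5% of all genes tested. Arsg, a lysosomal sulfatase, was at 32.2 and 30.3 CPM in vehicle, 2.59 and 2.94 CPM after LPS, and 4.97 and 3.06 CPM after SGA360+LPS; it has 2 transcript rows and is uncertain for that reason. Plekhm1, an adaptor for fusion of late endosomes with lysosomes, was at 393 and 397 CPM in vehicle, 156 and 158 CPM after LPS, and 192 and 203 CPM after SGA360+LPS. Fnip2, a partner of folliculin in nutrient signalling at the lysosome, was at 465 and 520.1 CPM in vehicle, 194 and 194 CPM after LPS, and 210.3 and 228 CPM after SGA360+LPS. Plekhm1 and Fnip2 were at 49.99% and 44.5% of vehicle with SGA360+LPS, against 39.8% and 39.4% with LPS. The glycan-processing genes Man1c1, a mannosidase of the Golgi, and Mgat5, which adds branches to N-glycans, were at 223 and 260.1 CPM in vehicle and 77.8 and 71.7 CPM with LPS and at 41.3 and 55.7 CPM in vehicle and 13.7 and 13.7 CPM with LPS.

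Promoter windows, 250 bases before to 50 after the annotated start, were found for 195 of the 264 genes in RefSeq sequence of build GRCm38.p6 (the assembly of mm10). For 175 of them the start lay within 50 bases of the deposited transcription start. Windows of 4 genes are printed because they belong to members described above and hold a searched motif near the start: the lipid droplet coat, the cholesteryl ester hydrolase and the sulfamidase, each with the E-box letters CACGTG, and the C3a receptor, with the AP-1 letters TGANTCA. Capitals mark those letters only. Other searched motifs also matched and are not marked: an NF-kB motif 14 bases and a GC box 76 bases before the start of C3ar1, a TATAAA 235 bases before it, the PU.1 letters 73 bases before the start of Nceh1, and a GC box in Plin2 and in Sgsh. All are 5′ to 3′ on the gene's strand.
Plin2, minus strand, chr4:86670010-86670309: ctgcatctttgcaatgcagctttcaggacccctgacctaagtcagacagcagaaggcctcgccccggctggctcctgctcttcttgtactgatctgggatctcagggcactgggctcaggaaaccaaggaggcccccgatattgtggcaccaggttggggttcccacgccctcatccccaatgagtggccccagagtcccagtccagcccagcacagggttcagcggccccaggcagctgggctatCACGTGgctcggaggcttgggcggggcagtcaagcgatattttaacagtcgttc
Nceh1, plus strand, chr3:27182754-27183053: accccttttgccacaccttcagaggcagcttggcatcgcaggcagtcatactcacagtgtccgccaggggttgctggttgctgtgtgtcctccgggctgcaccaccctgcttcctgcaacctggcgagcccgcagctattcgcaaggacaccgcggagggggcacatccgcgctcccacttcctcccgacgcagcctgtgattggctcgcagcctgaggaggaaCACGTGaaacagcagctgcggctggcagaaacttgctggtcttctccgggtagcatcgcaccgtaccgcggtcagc
Sgsh, minus strand, chr11:119355461-119355760: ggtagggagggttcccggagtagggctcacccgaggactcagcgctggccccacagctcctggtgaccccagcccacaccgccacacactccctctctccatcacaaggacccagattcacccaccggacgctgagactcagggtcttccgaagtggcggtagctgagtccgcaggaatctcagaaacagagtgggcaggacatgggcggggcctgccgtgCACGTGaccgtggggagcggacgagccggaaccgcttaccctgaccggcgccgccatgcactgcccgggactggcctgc
C3ar1, minus strand, chr6:122856108-122856407: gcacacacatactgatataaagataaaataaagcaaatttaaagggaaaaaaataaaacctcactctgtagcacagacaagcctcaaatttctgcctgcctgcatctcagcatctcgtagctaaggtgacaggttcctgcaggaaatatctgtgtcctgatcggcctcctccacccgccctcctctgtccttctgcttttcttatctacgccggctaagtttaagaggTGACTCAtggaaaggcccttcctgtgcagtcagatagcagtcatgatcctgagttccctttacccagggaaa
The E-box begins 4 bases before the start in Plin2, 26 before in Nceh1 and 29 before in Sgsh, and the AP-1 letters begin 22 bases before the start of C3ar1. The 4 windows differ in composition: C3ar1 has 46% G and C and 5 CpG, while Sgsh has 67% and 21 CpG.

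Letters were searched on both strands, and a match is not evidence of binding. CACGTG stood in 23 of the 195 windows (11.8%), in 10.4% of the 7065 windows of tested genes and in 7.15% of all 32851 windows. TGANTCA stood in 17 (8.72%), against 4.87% of tested genes and 7.81% of all windows. The forkhead letters GTAAACA were in 3.08% (2.17% and 3.65%), the PU.1 letters GAGGAAGT in 2.05% (3.2% and 3.2%), and an NF-kB motif in 1.54% (1.78% and 1.63%). GGGCGG, the GC box, was in 62.6% (66.4% and 35.7%), TTGCNNAA of C/EBP factors in 10.8% (8.45% and 10.8%), TGCTGAC of Maf factors in 4.1% (3.64% and 4.67%) and TATAAA in 9.74% (6.81% and 13.6%). Median GC content was 61.7% in the group and 61.3% in tested genes, and the median number of CpG was 18 and 21. The deposited exon length had a median of 3393 bases in the group and 2801 bases over the genes tested. Members lay on all autosomes and X, with 25 on chromosome 5 as the highest number. Plin2 (minus strand), Nceh1 (plus), Sgsh (minus) and C3ar1 (minus) are protein-coding in GENCODE M21. The span of Sgsh overlaps that of Card14 on the other strand, and no source used here says whether counting used strand.

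Metabolic enzymes outside lipid handling numbered 23. Nat8l, which makes N-acetylaspartate, had the lowest ratio of all 264 genes, with 15.9 and 13.7 CPM in vehicle, 0.906 and 1.26 CPM after LPS, and 0.994 and 1.64 CPM after SGA360+LPS. Its LPS counts were 7 and 12, so its 7.31% of vehicle is imprecise. Hal, which opens histidine breakdown, was at 17.1 and 14.6 CPM in vehicle, 1.29 and 1.78 CPM after LPS, and 1.49 and 1.86 CPM after SGA360+LPS. Xdh, the oxidoreductase that makes uric acid, was at 512 and 587 CPM in vehicle, 194 and 205 CPM after LPS, and 205 and 209 CPM after SGA360+LPS. Nat8l and Hal thus had few counts after LPS, while Xdh had 1502 and 1957. Pdxk, which activates vitamin B6, was at 307 and 343 CPM in vehicle, 94.7 and 88.0 CPM after LPS, and 108 and 112 CPM after SGA360+LPS. Gyg, the primer protein of glycogen, was at 249 and 254 CPM in vehicle and 85.9 and 79.6 CPM with LPS, and Msrb1, a methionine sulfoxide reductase, at 253 and 252 CPM in vehicle and 97.2 and 97.5 CPM with LPS. Impa2, an inositol monophosphatase, was at 19.1 and 16.7 CPM in vehicle, 7.25 and 4.83 CPM after LPS, and 8.82 and 8.08 CPM after SGA360+LPS, and Clybl, a mitochondrial citramalyl-CoA lyase, at 22.1 and 14.99 CPM in vehicle, 8.02 and 6.19 CPM after LPS, and 6.21 and 6.01 CPM after SGA360+LPS.

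Genes of amino acid breakdown outside the 264 were also called lower. Auh and Mccc2, both of the leucine pathway, were at 30.4 and 25.2 CPM in vehicle and 10.7 and 8.08 CPM with LPS and at 21.2 and 15.7 CPM in vehicle and 6.60 and 7.66 CPM with LPS. Of the 20 tested genes in the list of branched-chain and other amino acid catabolism, 13 were called lower and 0 higher with LPS by edgeR, against 17% and 19.4% of all genes. Of the 13, 3 (Auh, Mccc2 and Nat8l, which is not a catabolic enzyme) belong to the 264 and were chosen for their fall. Ivd, the isovaleryl-CoA dehydrogenase of leucine breakdown, fell by 1.15 on the log2 scale (SE 0.15, adjusted p = 0.000181), and Hibch, of valine breakdown, by 1.05 (SE 0.19, adjusted p = 0.00181).

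The role with most members, 44, was small GTPase control, cytoskeleton and membrane traffic. Rasa3, a Ras and Rap GTPase-activating protein, was at 379.8 and 407 CPM in vehicle, 108 and 116 CPM after LPS, and 110.1 and 121 CPM after SGA360+LPS. Rasgrp2, an exchange factor for Rap1, was at 14.04 and 18.4 CPM in vehicle and 6.60 and 5.04 CPM with LPS. Regulators of small GTPases also included Dock8 (206 and 231 CPM in vehicle and 50.7 and 57.0 CPM with LPS), Arhgap18 (66.5 and 69.3 CPM in vehicle and 10.9 and 10.1 CPM with LPS) and Arhgef6 (65.5 and 74.0 CPM in vehicle and 24.1 and 25.4 CPM with LPS). Of these, Arhgap18 had the lowest ratio (15.4%), and both its SGA360+LPS libraries (8.33 and 9.06 CPM) were below both LPS libraries. Rab3il1, an exchange factor for Rab GTPases, was at 219.6 and 223 CPM in vehicle, 29.9 and 27.9 CPM after LPS, and 41.8 and 35.8 CPM after SGA360+LPS. Endocytic proteins included Hip1 (273 and 321 CPM in vehicle and 67.6 and 70.2 CPM with LPS) and Ehd4 (346 and 385 CPM in vehicle and 92.1 and 96.0 CPM with LPS). They were at 23.2% and 25.8% of vehicle.

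Among signalling and turnover genes, Fbxo32, the muscle atrophy ubiquitin ligase atrogin-1 and a classical FoxO target, was at 80.0 and 99.6 CPM in vehicle, 7.64 and 6.72 CPM after LPS, and 9.32 and 8.19 CPM after SGA360+LPS. It kept 7.99% of its vehicle level with LPS and 9.75% with SGA360+LPS. Fbxo32 was the only one of 23 listed FoxO-linked genes in the group, and 12 of the 19 tested, Fbxo32 included, were called lower with LPS and 0 higher (17% and 19.4% of all genes). Of these, Tsc22d3, which encodes the glucocorticoid-induced leucine zipper protein, was outside only because it reached 9.67 CPM in vehicle replicate 1; it has 3 transcript rows and is uncertain. Foxo4 itself fell by 0.96 on the log2 scale with LPS (SE 0.15, adjusted p = 0.000781). Rnf150 and Fbxw4, of the ubiquitin ligase families, were at 105 and 102 CPM in vehicle and 33.4 and 32.3 CPM with LPS and at 61.3 and 56.5 CPM in vehicle and 20.6 and 21.4 CPM with LPS. Kinase genes included Mknk2 (311 and 341 CPM in vehicle and 93.6 and 90.1 CPM with LPS), which phosphorylates eIF4E, and Camk1 (272 and 276 CPM in vehicle and 101 and 96.3 CPM with LPS). Chek2, the DNA damage checkpoint kinase, was at 32.7 and 26.7 CPM in vehicle, 10.2 and 9.86 CPM after LPS, and 8.70 and 8.73 CPM after SGA360+LPS. Mknk2, Camk1 and Chek2 were at 28.2%, 36.1% and 33.8% of vehicle.

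The 8 channels and transporters included the cation channel gene Trpv4 at 11.7 and 16.8 CPM in vehicle, 5.56 and 5.67 CPM after LPS, and 7.46 and 7.21 CPM after SGA360+LPS. Among the 64 genes with no role were Lhfpl2 (747 and 780.4 CPM in vehicle, 278 and 295 CPM after LPS, and 322 and 362 CPM after SGA360+LPS) and Fry, at 33.1 and 52.9 CPM in vehicle, 4.14 and 5.77 CPM after LPS, and 7.95 and 6.77 CPM after SGA360+LPS. Both had SGA360+LPS libraries above both LPS libraries, as had 121 of the 264 genes and 22.5% of all genes tested. Nxpe5 was at 36.7 and 36.7 CPM in vehicle and 3.36 and 3.25 CPM with LPS and Prune2 at 26.8 and 32.0 CPM in vehicle and 3.49 and 3.36 CPM with LPS. Hmga2-ps1, named as a pseudogene, was at 12.8 and 12.2 CPM in vehicle and 0.388 and 1.47 CPM with LPS, with 3 and 14 LPS counts; reads of its parent gene could be counted there. The TMEM genes were Tmem104 (239 and 302 CPM in vehicle and 73.8 and 69.9 CPM with LPS), Tmem65 (173 and 156 CPM in vehicle and 50.2 and 45.6 CPM with LPS), Tmem154 (107 and 129.6 CPM in vehicle and 25.2 and 22.0 CPM with LPS), Tmem8 (51.6 and 67.5 CPM in vehicle and 17.6 and 17.0 CPM with LPS) and Tmem108 (31.0 and 33.2 CPM in vehicle and 9.58 and 7.87 CPM with LPS), besides Tmem86a and 3 with lower levels. TMEM is a naming convention, not a function. Of 125 tested TMEM genes 33 were called lower and 16 higher (17% and 19.4% of all genes), and 9 of the 33 were chosen for their fall. Of the 264 genes 17, Arsg among them, have several transcript rows, and their counts may hold only reads specific to an isoform.

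**Figure D3:**
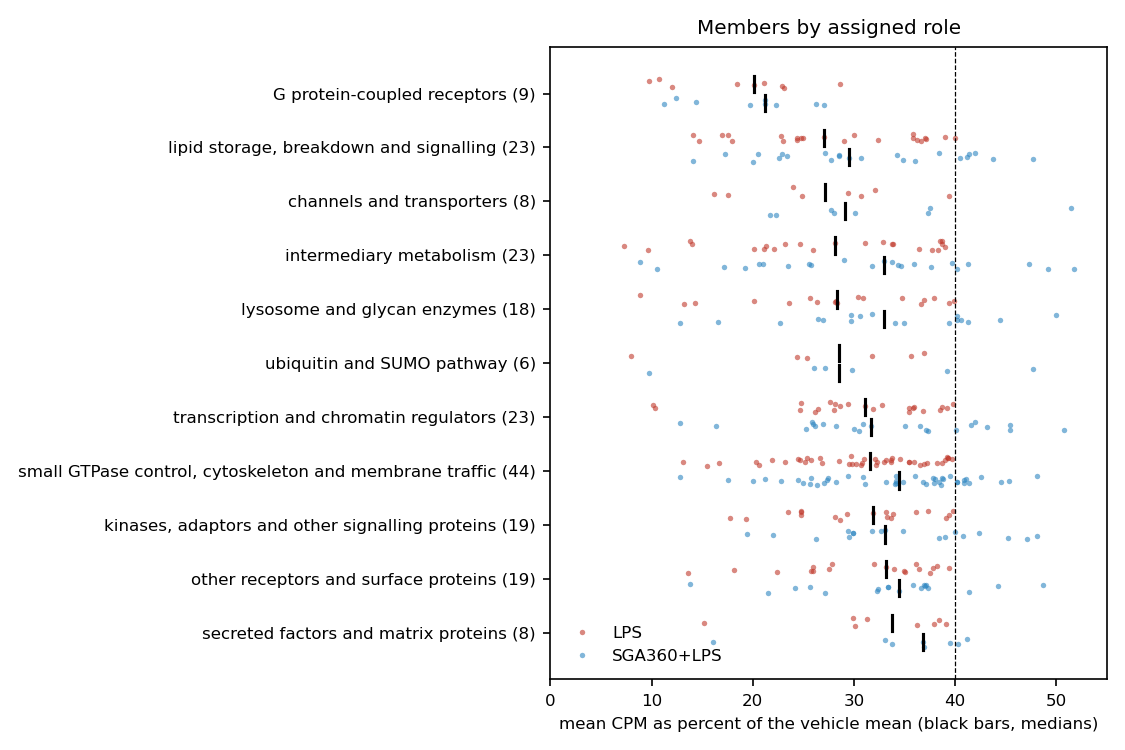
Mean CPM with LPS (red) and SGA360+LPS (blue) as percent of the vehicle mean (horizontal) for the 200 genes with an assigned role, 1 point per gene, with numbers of genes in parentheses and medians as black bars. The 9 G protein-coupled receptors have the lowest LPS median (20.1%), and the dashed line marks the 40% used to choose the genes.

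Pathway lists place the 264 genes among their relatives. Because the lists were chosen with earlier results of these data known, their shares are descriptions with no test of a pathway. In the phosphoinositide list 12 of 23 tested genes were called lower and 4 higher with LPS, although 0 of them belong to the 264. G protein-coupled receptors other than chemokine receptors moved both ways, with 11 lower and 12 higher among 26 tested; 6 of the 11 were chosen for their fall. The formyl peptide receptor gene Fpr1, for instance, went from 16.2 and 13.1 CPM in vehicle to 574 and 614 CPM with LPS (log2 fold change 5.47, SE 0.12, adjusted p = 6.21e-10). In the MAP kinase and Ras list 11 of 35 were lower and 8 higher, and in the MEF2, KLF, C/EBP and nuclear receptor list 6 of 21 each way. Wnt and Notch genes gave 5 lower and 4 higher of 16, circadian clock genes 3 and 2 of 11, and cyclic AMP genes 2 and 1 of 12. DNA repair genes gave 5 lower and 0 higher of 33, and TGF-beta and BMP genes 2 lower and 4 higher of 17. Among all genes tested, 17% were called lower and 19.4% higher. Zinc finger genes had 23 of 296 called in each direction, ubiquitin ligase families 20 lower and 23 higher of 134, deubiquitinases 3 and 10 of 34, ion channel prefixes 4 and 5 of 32, and sugar transferases 10 and 9 of 45. By edgeR, 0 genes of any list were called between SGA360+LPS and LPS.

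**Figure D4:**
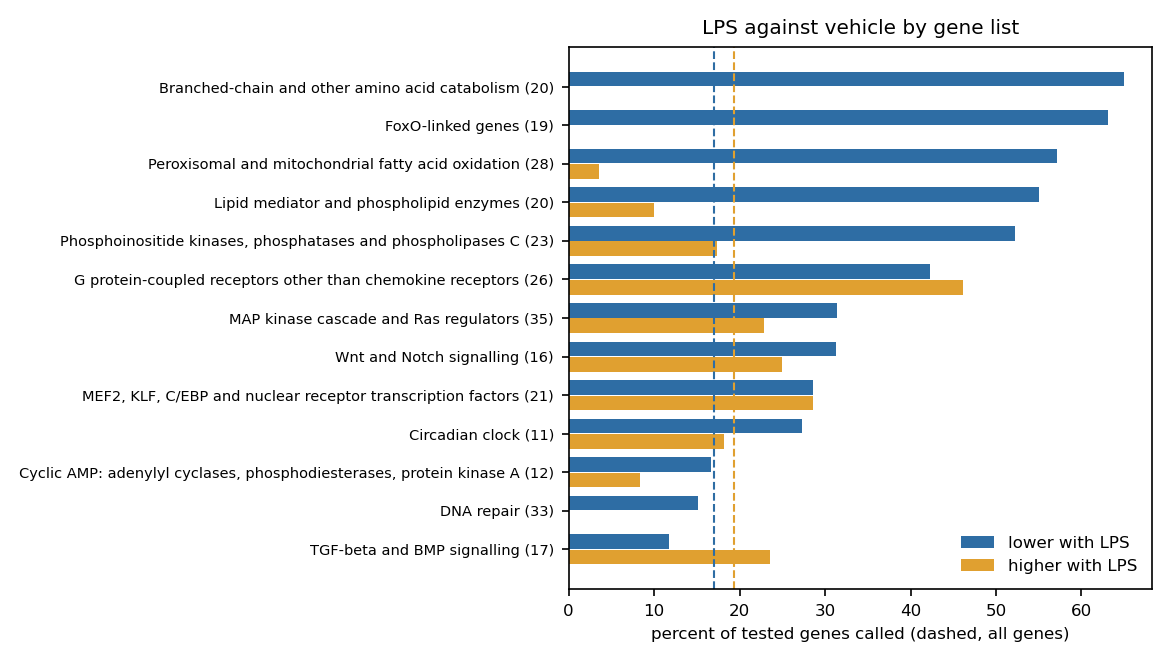
Percent of the tested genes of each of 13 lists (number tested in parentheses) called lower (blue) or higher (orange) with LPS against vehicle by edgeR at adjusted p under 0.05. Dashed lines give the shares among all 9389 genes tested, 17% lower and 19.4% higher; amino acid catabolism (13 of 20) and FoxO-linked genes (12 of 19) have the largest lower shares and no higher gene. Genes of the 264 are counted in the lower bars, and the lists were chosen with earlier results of these data known.

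The comparison of SGA360+LPS with LPS asks whether the ligand changed these genes under the endotoxin. The SGA360+LPS libraries played no part in choosing the genes, but the LPS libraries were chosen for low values. The LPS side of each ratio is therefore not independent of the rule. By edgeR's quasi-likelihood test across 9389 genes, 0 of the 264 were called, and DESeq2 also called 0; among all genes 0.0746% were called by edgeR (0% higher). At an unadjusted p under 0.05, 32 of the 264 were higher and 0 lower, where 1.51% of all genes were higher and 1.43% lower. The median log2 fold change was 0.15 in the group and 0.00 over all genes tested. The SGA360+LPS mean was above the LPS mean in 216 genes and below it in 48, while 54.7% of all genes were above. Both SGA360+LPS libraries exceeded both LPS libraries in 121 genes (22.5% of all genes) and lay below both in 8 (17.4% of all genes).

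To compare with an LPS library that the choice had not used, genes were chosen with 1 LPS library and SGA360+LPS was set against the other, a check added after the data were seen. Chosen with LPS replicate 1, 275 genes had a median ratio of 1.08 to LPS replicate 2, and 197 of them (71.6%) were above 1; all genes tested had a median of 1.02 and 57% above 1. Chosen with LPS replicate 2, 277 genes had a median ratio of 1.1 to LPS replicate 1, with 201 (72.6%) above 1, against 1.01 and 52% over all genes tested. These ratios were smaller than the 1.14 and 1.12 against the library that had chosen the genes. The vehicle libraries enter the rule in both cases. The labels do not say whether the LPS libraries are separate cultures. A low value shared by both would still enter the choice, so the check cannot remove that effect. The counts are of genes, not of replicates.

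None of the 264 genes passed the test on its own. Plekhm1 had the lowest p (log2 fold change 0.31, SE 0.07, unadjusted p = 0.00114, edgeR adjusted p = 0.97). Rab3il1 (0.41, SE 0.11), Tmem104 (0.39, SE 0.11), Ttc7 (0.28, SE 0.08), Aph1c (0.41, SE 0.12) and Selplg (0.29, SE 0.09) followed, each with an edgeR adjusted p of 1. Aph1c encodes a subunit of gamma-secretase, and it was at 136 and 133 CPM in vehicle, 22.8 and 22.0 CPM after LPS, and 32.1 and 28.3 CPM after SGA360+LPS. Ttc7 was at 237 and 264 CPM in vehicle, 74.0 and 76.7 CPM after LPS, and 92.6 and 93.0 CPM after SGA360+LPS, and Tmem104 at 90.6 and 99.0 CPM with SGA360+LPS. In these 6 genes both SGA360+LPS libraries were above both LPS libraries, as in 121 of the 264 genes and 22.5% of all genes tested. They were picked by the lowest p of this comparison, so the separation describes the choice. Their SGA360+LPS means were at most 49.99% of the vehicle means.

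Among genes with a mean of at least 5 CPM over the LPS-treated libraries, the highest ratios of SGA360+LPS to LPS were those of Fry (1.49), Gpr157 (1.48), Napepld (1.47), Tmem86a (1.42) and Impa2 (1.4). The lowest were Hpgds (0.830), Arhgap18 (0.830), Tnfrsf26 (0.844), Clybl (0.860) and Chek2 (0.868). The log2 fold changes of these 10 genes ran from -0.28 (SE 0.16) to 0.55 (SE 0.34), and none passed the test.

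**Figure D5:**
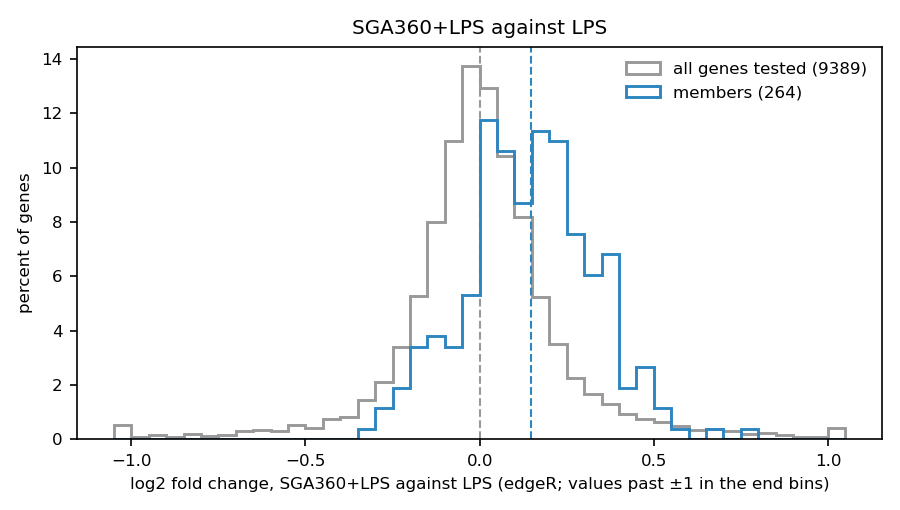
Distribution of edgeR log2 fold changes of SGA360+LPS against LPS (horizontal) for the 264 genes (blue) and all 9389 genes tested (grey), as percent of genes per bin, with medians dashed (0.15 and 0.00). The LPS libraries had been chosen for low values of the blue genes.

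Against vehicle, whose libraries the rule had chosen for high values, 263 of the 264 genes were called lower with SGA360+LPS by edgeR (15.2% of all genes). The exception was Zkscan14, at 17.7 and 10.0 CPM in vehicle and 8.08 and 6.01 CPM with SGA360+LPS (log2 fold change -0.88, SE 0.32, adjusted p = 0.0606). The fitted median was -1.47, beside -1.61 for LPS against vehicle, both against the same vehicle libraries. With SGA360+LPS, 202 genes were still at or below 0.4 of vehicle, and 4 were above 0.5: Mccc2, Nbeal2, Zkscan14 and Trpv4. Falls scaled by library total are deeper than fitted ones, since TMM scaling moves the median of all genes in LPS against vehicle from -0.14 to -0.01 on the log2 scale. With TMM-scaled library sizes in the rule, 204 of the 264 genes would have been chosen.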

How the data were processed

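The values deposited by the authors are raw read counts in 34751 transcript rows, each with its position and exon length. TopHat2 (2.0.13), HTSeq (0.5.4p3) and the build mm10 are named in the submitters' processing notes, with no strand setting or annotation version. Counts were summed per symbol; 5639 symbols have several rows. Members and lists were chosen with earlier results of these data known. All 264 genes passed the filter on low counts.

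Levels are CPM by library total. Tests used edgeR 4.0.16 (filterByExpr with a minimum count of 10, TMM, quasi-likelihood F test, 3 groups, 3 residual degrees of freedom) in R 4.3.3 and Benjamini-Hochberg adjustment over 9389 genes at 0.05; SE is the log2 fold change over the square root of F. DESeq2 1.42.0 was an alternative. The fits were also run on simulated counts with the same spread in every group and no LPS change. These data differ in both respects, so that run does not show how the fits perform here.

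Named genes are those with the lowest ratios, highest vehicle CPM, values next to the threshold, lowest p or extreme ratios for SGA360+LPS, and list members. Chosen after their values were known, and so not by the rule, were Maf, Lyl1, Fli1, Epas1, Ccr1, Il7r, Il21r, Tlr13, Havcr2, Cd300a, Cd300lb, the secreted factors, Fabp4, Nceh1, Tbxas1, Sgsh, Hpse, Pdxk, Gyg, Msrb1, Hip1, Ehd4, Mknk2, Camk1 and Nbeal2. Some genes named by the rule are not reported here.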

Additional observations from a re-analysis of the deposited data

How the results depend on the processing

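The count of the 264 genes called between SGA360+LPS and LPS was 0 in each direction under every alternative run, with medians from 0.1139 (without SGA360+LPS replicate 2) and 0.1167 (without LPS replicate 1) to 0.1712. The number of genes chosen was 489 at a ratio of 0.5, 134 at 0.3, 204 with TMM-scaled library sizes, and 275 to 336 without 1 of the 4 libraries of the rule. Over all genes, LPS against vehicle gave 3413 calls, or 2091 (without LPS replicate 2) to 5494 (without vehicle replicate 2) with 1 library left out, and 2217 without LPS replicate 1. SGA360+LPS against LPS gave 7 calls, 0 to 16 with 1 library left out (15 and 16 without vehicle replicate 1 or 2, 3 without LPS replicate 1, and 0 without LPS replicate 2 or either SGA360+LPS library), 17 with no filter and 12 in a fit of the 2 groups compared. SGA360+LPS against vehicle gave 3107 calls, or 1831 and 1872 without SGA360+LPS replicate 1 or 2 and 5315 without vehicle replicate 2; the cause was not tested. With the replicate number as a block the counts were 3434, 5 and 3136. Same-numbered libraries shared deviations only weakly (correlations -0.01, 0.01 and 0.16 over genes), so the numbers were not taken to pair samples. Of 36 named genes, 9 changed the sign of an uncalled log2 fold change for SGA360+LPS against LPS with 1 library left out. Their ranges over these fits were -0.1588 to 0.565 (Nat8l), -0.3705 to 1.537 (Hmga2-ps1), -0.1131 to 0.371 (Hal), -0.1154 to 0.25 (Lpar6), -0.257 to 0.04939 (C3ar1), -0.1054 to 0.04575 (Cd93), -0.07526 to 0.03082 (Soat1), -0.0173 to 0.08746 (Xdh), -0.05828 to 0.2318 (Nrp1). The value changed sign without LPS replicate 1 in Hmga2-ps1 (-0.37), Hal (-0.11), Xdh (-0.0173) and Nrp1 (-0.05828), without LPS replicate 2 in Lpar6 (-0.12), C3ar1 and Cd93, without SGA360+LPS replicate 1 in C3ar1 (0.04087), Cd93 (0.0379) and Soat1, and without SGA360+LPS replicate 2 in Nat8l (-0.16), Hmga2-ps1 (-0.17) and Hal (-0.08). With 1 library left out, the lone library of an arm is assumed to vary like the other groups. Depth limits genes with under about 20 counts after LPS, such as Dbp, Nat8l and Hmga2-ps1.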
